A study of Mus musculus with 88 samples.

Results

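In the ventral hippocampus (vHPC) of B6 mice, 3 mice susceptible to chronic social defeat stress (CSDS) were compared with 8 resilient mice, 11 of the 28 vHPC libraries and of 88 libraries in the series. All genes of the deposited vHPC table entered the comparison, and none was chosen by its values. In CSDS a mouse is attacked daily by a larger aggressor and lives beside it behind a divider, and a social avoidance test then gives its social interaction ratio. A defeated mouse was classed as susceptible when its log-transformed ratio lay more than 1 SD below the mean of controls of its own strain, and as resilient otherwise. The B6 mice were C57BL/6Crl males and, like the D2 mice, 8 weeks old at dissection. The comparison groups were 6 unstressed B6 controls and 6 unstressed controls of the D2 strain (DBA/2Crl), and 5 susceptible D2 mice also entered the fit. Each library came from 1 mouse, from dissected tissue with all its cell types and with ribosomal RNA depleted.

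The vHPC is the end of the hippocampus that projects to the amygdala, the prefrontal cortex and the hypothalamus, and it is known for its part in anxiety-like behavior and in the response to stress. Its dentate gyrus, CA3 and CA1 form a chain of excitatory neurons, with interneurons, oligodendrocytes that wrap axons in myelin, astrocytes, microglia and vessels between them, and the choroid plexus of the ventricle lies against it. B6 and D2 are inbred strains that differ at many genes, so that part of any expression difference between them is inherited.

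The tissue carried the markers of its label. Prox1, which defines dentate granule cells, lay between 5.72 and 6.53 log2 CPM (reads scaled to library size, on the log2 scale) in the 11 mice, Mpped1, a CA1 gene, between 7.59 and 8.12, and the CA3 gene Grik4 between 5.8 and 6.27. Resilient libraries had 8410633 to 22931954 reads (median 11070193) and susceptible libraries 10512559 to 22002833 (median 18243462). Library preparation set 1 alone held both phenotypes, with susceptible mouse 2 and resilient mice 1 and 2. Susceptible mice 1 and 3 were in sets 8 and 10, resilient mouse 4 in set 7 and resilient mice 6 and 8 in set 3. Each of these sets also held at least 1 D2 control. The B6 controls were in sets 5, 6 and 9, where no defeated B6 mouse was.

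Resilient mice 4, 7 and 8 stood apart from the other 5 in mitochondrial ribosomal RNA. The level of mt-Rnr2, the large ribosomal RNA of the mitochondrion, was 14.40, 14.55 and 14.51 log2 CPM in resilient mice 4, 7 and 8, and 14.33, 14.89 and 14.50 in the susceptible mice. In resilient mice 1, 2, 3, 5 and 6 it was between 11.88 and 12.41, and in B6 controls between 13.13 and 13.63. The 3 susceptible mice therefore sat at the level of the 3 resilient mice, with no resilient mouse between the high and the low values. The small ribosomal RNA mt-Rnr1 split the mice in the same way, at 12.04, 13.23 and 12.41 in the susceptible mice and 12.08, 12.55 and 12.24 in resilient mice 4, 7 and 8, against 8.84 to 9.64 in the other resilient mice. Both RNAs were chosen after their values were seen. Counts of calls are therefore also given with the mt-Rnr2 level as a covariate, and some without those 3 resilient mice. Both RNAs were themselves called higher in susceptible mice, mt-Rnr2 by 1.48 and mt-Rnr1 by 2.19 (limma, adjusted p = 0.0161 and 0.0124). The level thus goes partly with phenotype, and the fit with this covariate cannot fully tell the 2 apart.

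Susceptible and resilient B6 mice differed at many genes, with oligodendrocyte, immune, vessel, ribosomal protein and respiratory chain genes lower in susceptible mice and synaptic, activity-induced and clock genes higher. At an adjusted p under 0.05 (limma, Benjamini-Hochberg), 5404 of 19559 genes differed (27.6%), of which 2749 were higher (14.1%) and 2655 lower (13.6%) in susceptible mice. Most differences were small, with a median absolute difference of 0.32 on the log2 scale among genes called, and 116 of them exceeded 1. At 2595 genes (13.3%) the 3 susceptible mice lay beyond all 8 resilient mice on 1 side. The count was 0 when the library set was in the model (4685 genes at an unadjusted p under 0.05) and within library set 1 (3324 unadjusted). Within that set, 5387 of the 5404 genes (99.7%) kept the sign of their difference, though its mice are also in the fit over all mice. Sequencing set 2, with 1 susceptible mouse against 7, gave 0 calls (5458 unadjusted) and sequencing set 1, with 2 against 1, gave 100, and each of these within-set fits has a group of 1 mouse whose spread is taken from the other groups. The count was 350 (1.79%) with the mt-Rnr2 level as a covariate and 9181 without resilient mice 4, 7 and 8. Leaving out a susceptible mouse gave 2843 genes without mouse 1, 1495 without mouse 2 and 2891 without mouse 3. Fitting the 11 mice by themselves gave 1017 genes. Library set and phenotype cannot be told apart outside set 1. Whether the authors' batch adjustment was given the groups is not known from the sources used here, and its part in the number of calls was not tested.

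A large share of the difference ran along the difference between the strains. Of the 5404 genes called, 4846 (89.7%) were displaced in susceptible mice toward the side on which D2 controls lay from B6 controls, beside 71% of all genes and 63.8% of the genes not called. Between D2 and B6 controls 11603 genes differed (59.3%), 5911 higher and 5692 lower in D2. Of the genes with this strain difference 33.3% were also called between phenotypes, against 19.3% of the genes without it. Where both comparisons made a call, 3735 of 3866 genes went the same way (96.6%). The share of phenotype calls rose with the strain difference, from 24.8% of genes with a strain difference under 0.5 to 35% from 0.5 to 1, 39.1% from 1 to 3 and 61.2% at 3 or more on the log2 scale. Of the called genes in the last class, 112 in all, 100% went the way of the strain difference, as did 115 of the 116 called genes that differed by more than 1 between phenotypes.

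Across all 19559 genes, the phenotype difference was on average 0.221 of the strain difference (slope through the origin; 0.183 within library set 1 and 0.190 with the library set in the model), and the strain difference accounted for 36.1% of the sum of squares of the phenotype difference, or 48.0% over the genes called. Spearman's rho across genes was 0.586, and genes are not independent replicates. The compared groups have no mouse in common, but all libraries passed through the same batch adjustment and shared library sets. Taken singly against the mean of the resilient mice, susceptible mice 1, 2 and 3 had slopes of 0.253, 0.214 and 0.197.

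**Figure D1:**
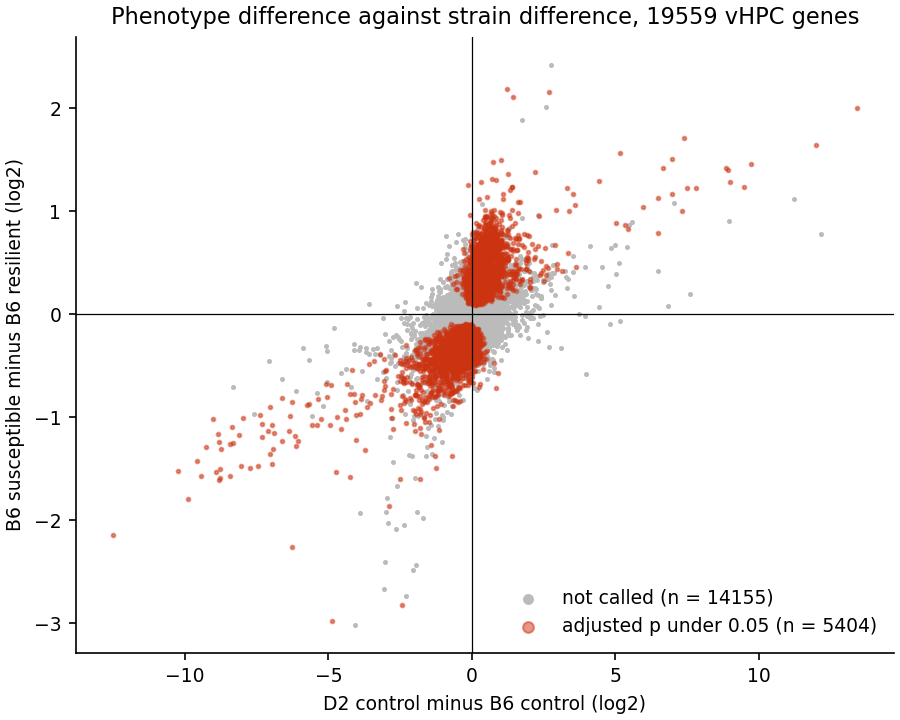
Each point is 1 of 19559 genes, with the difference between D2 and B6 controls on the horizontal axis and between susceptible and resilient B6 mice on the vertical axis, both in log2 CPM. The 5404 genes called (red) lie mostly at the lower left and the upper right, and the 14155 others are grey.

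The same displacement was measured in each mouse with 95 strain marker genes, chosen in other animals for a log2 difference beyond 3 between D2 and B6 controls in the bed nucleus of the stria terminalis (BNST). Strain position is the weighted mean of these genes, scaled to 0 for the mean B6 control and 1 for the mean D2 control of the vHPC. Susceptible mice 1, 2 and 3 stood at 0.499, 0.443 and 0.438, and the 8 resilient mice between 0.288 and 0.364 (median 0.311). All defeated B6 mice lay well away from the B6 controls, which were between -0.0259 and 0.0266, and the susceptible mice lay beyond every resilient mouse. The B6 controls shared no library set with a defeated B6 mouse, so defeat and library set cannot be told apart in that gap. All B6 controls were in sequencing set 1, with 2 susceptible mice and 1 resilient mouse. The means were 0.460 ± 0.0341 (SD, n = 3) and 0.322 ± 0.0270 (SD, n = 8), a difference of 0.139 (exact permutation test, two-sided, p = 0.00606, the smallest p that 165 splits of the mice allow). The test took no account of library sets, and outside set 1 it cannot tell library set and phenotype apart. The difference was 0.126 without resilient mice 4, 7 and 8. Within library set 1, susceptible mouse 2 stood at 0.443 and resilient mice 1 and 2 at 0.364 and 0.360. Susceptible D2 mice were beyond the D2 controls, at 1.16 to 1.27.

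**Figure D2:**
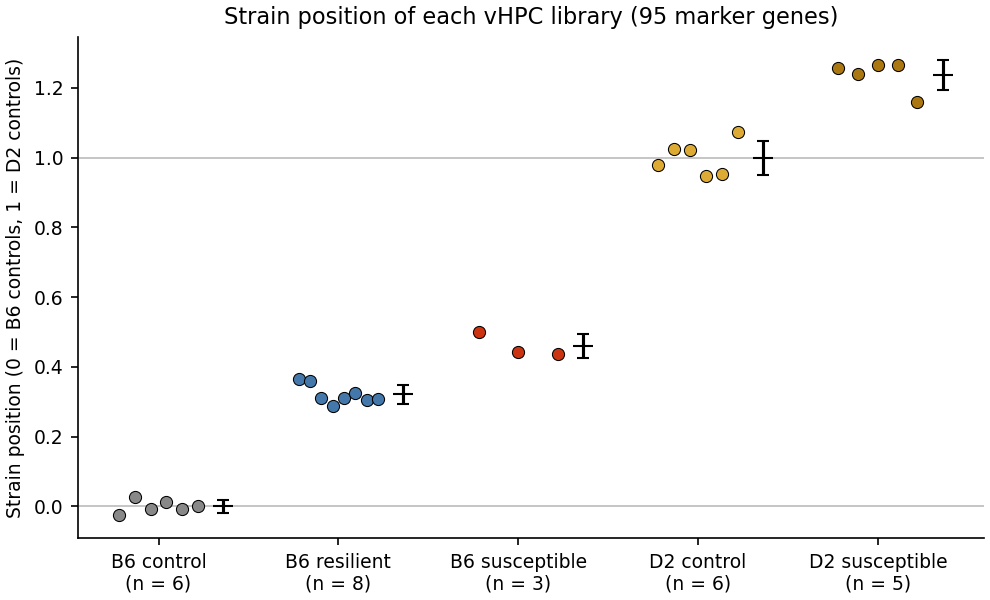
Strain position (vertical axis, no unit, 0 for the mean B6 control and 1 for the mean D2 control) of each of the 28 vHPC mice by group, with the mean and SD beside the points. The 3 susceptible B6 mice, at 0.438 to 0.499, are above the 8 resilient mice, at 0.288 to 0.364.

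Of the 95 markers, 81 went the way of the strain difference and 42 were called (44.2%), 41 of them along it. Of the 39 markers with a mean of at least 1 log2 CPM, 27 went that way, beside 71.0% of all genes at that level. The slope over these 39 markers was 0.113, beside 0.139 over the 95. The D2-high markers were led in strain difference by Stab2, a scavenger receptor for hyaluronan (chr10:86841198-87008025, GRCm38). Its level was 3.6, 3.17 and 3.05 log2 CPM in the susceptible mice and 1.66 to 2.48 (median 2.00) in the resilient mice, and it was -0.36 in B6 and 7.23 in D2 controls (medians). Susceptible mice were thus higher than every resilient mouse, by 1.22 ± 0.22 (SE), adjusted p = 0.00170. Dnah6, a dynein chain of cilia, was also higher in D2 controls, but its susceptible values of 3.62, 3.71 and 3.5 lay within the resilient range of 3.16 to 4.48 (median 3.86) (adjusted p = 0.543). Among the B6-high markers, Fggy, a carbohydrate kinase, differed by -1.16 ± 0.21 (SE), adjusted p = 0.00178, Mndal, an interferon-inducible gene with close relatives, by -1.24 ± 0.38 (SE), adjusted p = 0.0195, and Trim12a, which also has near-identical neighbours, by -1.17 ± 0.38 (SE), adjusted p = 0.0267. Reads of such relatives cannot always be assigned to 1 copy in counting. With strain position, which is built from such markers, in the model, the difference of Trim12a turned to 0.12 and that of Stab2 was 0.32 (adjusted p = 0.415).

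Genes with the lowest scores, a ranking by the log2 difference times −log10 p, were all lower in D2 than in B6 controls, 10 of 10. Fam205c (chr4:42868004-42874234) was at 1.66, 2.31 and 2.25 log2 CPM in the susceptible mice and 3.25 to 4.31 (median 3.62) in the resilient mice, with 6.65 in B6 and -2.94 in D2 controls (medians). The groups did not overlap, and the difference was -1.57 ± 0.26 (SE), adjusted p = 0.000914. Tnni1, the slow skeletal muscle troponin I, was at 0.21, 0.47 and 0.35 against 1.5 to 2.32 (median 1.72) and fell by 1.45 (adjusted p = 0.000135). Hspb8, a small heat shock protein that works with the chaperone Bag3 in autophagy, was at 3.5, 3.76 and 3.61 against 4.21 to 4.72 (median 4.46), a difference of -0.85 ± 0.11 (SE), adjusted p = 0.000135. The groups were also separate at Nat8f4 (-1.08), the securin gene Pttg1 (-1.182), the guanylate-binding protein Gbp9 (-0.97) and Myoc, which encodes myocilin (-1.23), with adjusted p values of 0.000386, 0.00136, 0.000445 and 0.00137. With the mt-Rnr2 level as a covariate all 7 of these genes were still called, with adjusted p values of 0.00379 to 0.0340. With strain position as a covariate Tnni1 (-1.42) and Hspb8 (-0.62) were called and the other 5 were not, with differences of -0.52 for Fam205c, -0.46 for Pttg1, -0.61 for Myoc, -0.60 for Nat8f4 and -0.65 for Gbp9.

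Genes with the highest scores included Tox3, Ntng1 and Klf5. Tox3, a transcription factor of the high mobility group family (chr8:90247040-90348343), was at 3.27, 3.2 and 3.21 log2 CPM in the susceptible mice and 2.36 to 2.86 (median 2.55) in the resilient mice, and rose by 0.64 ± 0.093 (SE), adjusted p = 0.000386. Its level in the susceptible mice was close to the 3.28 of D2 controls, against 2.55 in B6 controls (medians). Ntng1, the axon guidance molecule netrin-G1, was at 6.31, 6.28 and 6.27 against 5.47 to 6.05 (median 5.64) and rose by 0.59 ± 0.10 (SE), adjusted p = 0.000870. Klf5, a Krüppel-like transcription factor, was at 2.19, 2.61 and 2.49 against 0.27 to 2.11 (median 1.2), a wide resilient range, and rose by 1.23 ± 0.27 (SE), adjusted p = 0.00449. Sema4g, a semaphorin, rose by 0.82, Nrsn2, a small membrane protein of neuronal vesicles, by 0.80, the splicing protein Wbp11 by 0.73 and Tmem145 by 0.65 (adjusted p = 0.00178, 0.00260, 0.00255 and 0.00137). Hmga1b, a near copy of Hmga1 from which its reads may not always be told apart, rose by 0.68 (adjusted p = 0.00141). With the mt-Rnr2 level as a covariate, Stab2, Tox3 and Ntng1 were still called (adjusted p = 0.0139, 0.0142 and 0.0355) and the other genes with the highest scores were not. With strain position as a covariate Tox3 (0.73, adjusted p = 0.0296) and Ntng1 (0.65, adjusted p = 0.0318) were called. So were Klf5, Tmem145, Nrsn2, Sema4g and Hmga1b (adjusted p = 0.0320 to 0.0468), while Stab2 and Wbp11 were not.

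**Figure D3:**
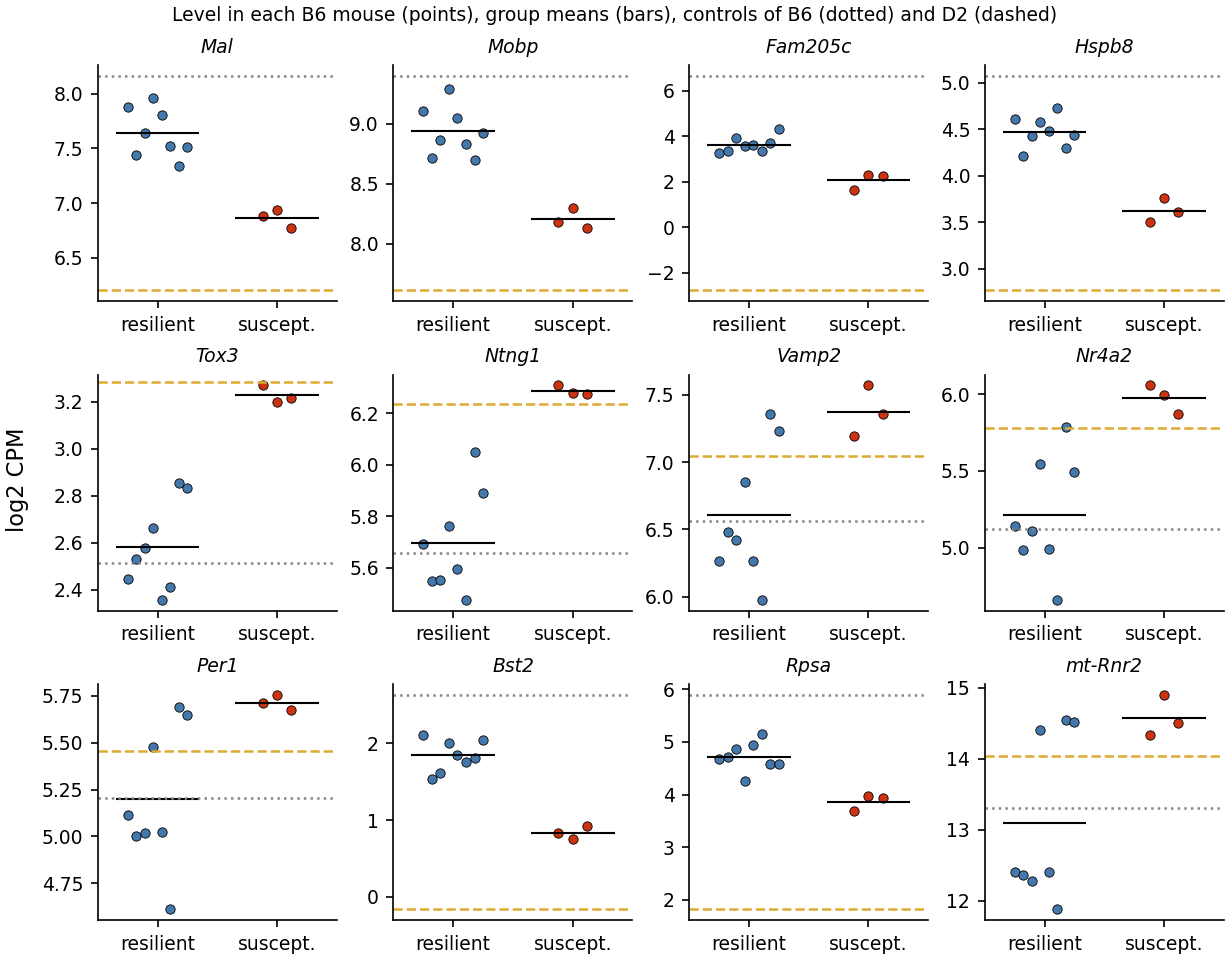
Level of 12 genes (vertical axis, log2 CPM) in each of the 8 resilient and 3 susceptible B6 mice (points), with group means (bars) and the means of B6 controls (dotted) and D2 controls (dashed). Mal, Mobp, Fam205c, Hspb8, Bst2 and Rpsa are lower in every susceptible mouse, Tox3, Ntng1 and Nr4a2 are higher, and at Vamp2, Per1 and mt-Rnr2 the susceptible mice are level with some resilient mice.

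Some calls fell on genes with no strain difference at the threshold. Of the genes called, 1538 had no call between the strains, and 72.2% of these still lay on the D2 side. With strain position as a covariate 1826 genes were called (9.34%), of which 1505 were among the 5404, and 530 of those had no strain call. Spock1, the proteoglycan testican, was at 6.80, 6.84 and 6.89 log2 CPM in the susceptible mice and 5.75 to 6.77 (median 5.99) in the resilient mice, with 6.34 in B6 and 6.32 in D2 controls (medians). It rose by 0.66 ± 0.15 (SE), adjusted p = 0.00457. Cdr1 on chromosome X rose by 1.25, from 1.54 to 3.39 (median 2.31) to 3.90, 3.80 and 3.51 (adjusted p = 0.0184). The Nextera libraries do not keep the strand, so reads of Cdr1 cannot be told apart from those of the antisense circular RNA Cdr1as, which binds miR-7. Also higher were Clip3, a cytoplasmic linker protein (0.70), Tmem39b (0.65) and Fam222b (0.62), with adjusted p values of 0.00846, 0.00667 and 0.00822. Tppp3, a tubulin polymerization-promoting protein, was at 4.06, 4.16 and 4.02 in the susceptible mice, below 4.31 to 5.00 (median 4.69) in the resilient mice, a difference of -0.58 ± 0.10 (SE), adjusted p = 0.00109. Scrn2 (-0.69), Tuft1 (-0.51) and the prostaglandin reductase Ptgr1 (-0.69) were lower (adjusted p = 0.00523, 0.00673 and 0.0205). Of the genes named here, Tppp3 alone was also called with the mt-Rnr2 level as a covariate (adjusted p = 0.0467).

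At 131 genes the 2 comparisons made calls with opposite signs. The intracellular growth factor homolog Fgf12, which acts on sodium channels, was at 6.97, 6.86 and 7.00 log2 CPM in the susceptible and 6.52 to 6.84 (median 6.63) in the resilient mice and rose by 0.29 (adjusted p = 0.0109), while D2 controls were below B6 controls by 0.17. The neuronal adhesion molecule Negr1 rose by 0.22 and the procollagen protease Adamts3 by 0.21, both lower in D2 controls (adjusted p = 0.0113 and 0.00890). The peroxisomal membrane protein Pxmp2 (-0.53), the LIM domain protein Csrp2 (-0.42) and the receptor Tnfrsf12a (-0.46) were lower in susceptible mice and higher in D2 controls (adjusted p = 0.0191, 0.0178 and 0.0323). None of these 6 genes was called with the mt-Rnr2 level as a covariate, where their adjusted p values were 0.171 to 0.365.

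Genes of compact myelin and its junctions were lower in susceptible mice. Of 18 measured genes for structural proteins of myelin, 11 fell and 0 rose, with a median difference of -0.36 beside -0.012 for all genes. In tissue, fewer cells of a type and less RNA per cell cannot be told apart. Mobp, an abundant protein of compact myelin (chr9:120149707-120181484), was at 8.18, 8.30 and 8.13 log2 CPM in the susceptible mice and 8.70 to 9.29 (median 8.90) in the resilient mice, with 9.36 in B6 and 7.52 in D2 controls (medians). The groups did not overlap, and the difference was -0.73 ± 0.13 (SE), adjusted p = 0.00126. The myelin-associated glycoprotein Mag (-0.65), the link protein of nodes Hapln2 (-0.63), the connexin Gjb1 (-0.56), Ermn (-0.47), Cldn11, the claudin of myelin tight junctions (-0.46), and Cnp (-0.38) also fell without overlap, and Opalin fell by 0.55 with overlap. All 11 called genes went the way of the strain difference, whose median over the list was -1.06. With the strain component of each mouse subtracted 4 of them were called, with the mt-Rnr2 level as a covariate 5, and without resilient mice 4, 7 and 8 the list had 10 lower and 1 higher.

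Among 19 further genes of the oligodendrocyte lineage 5 fell and 1 rose. Mal, a proteolipid of myelin sorting, was at 6.88, 6.94 and 6.78 log2 CPM in the susceptible mice and 7.34 to 7.96 (median 7.58) in the resilient mice and fell by 0.77 (adjusted p = 0.000712). The transferrin gene Trf (-0.66), the actin-severing gelsolin Gsn (-0.74), the N-acetylaspartate-cleaving enzyme Aspa (-0.60) and Apod (-0.54) fell with it. Nkx2-2, a transcription factor that drives differentiation, was at 0.64, 1.184 and 1.2 against -1.01 to 1.11 (median -0.12) and rose by 0.96 (adjusted p = 0.0327), with overlap. Its difference was 0.10 with the mt-Rnr2 level as a covariate (adjusted p = 0.874) and -0.19 within sequencing set 1, and with that covariate 3 lineage genes were lower and 0 higher. Of 12 markers of oligodendrocyte precursors 1 rose, the calcium channel subunit gene Cacng4 (0.66, adjusted p = 0.00452), and 1 fell, the matrix proteoglycan gene Vcan (-0.13, adjusted p = 0.0262). Both precursor shares were below the 14.1% called higher and 13.6% called lower over all genes. The median of the precursor list was -0.017, and 0 of its genes were called with the covariate. Of 22 genes of cholesterol synthesis, on which myelin draws, 7 rose and 3 fell, with 11 differences above 0 and 11 below. The share of them that fell was near the 13.6% of all genes. The regulator Srebf2 (0.63, adjusted p = 0.00664) and Dhcr7, the enzyme of the last step (0.59, adjusted p = 0.00335), were among those that rose, and none of the 22 was called with the mt-Rnr2 level as a covariate.

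Interferon-stimulated and antigen presentation genes were lower as well. Of 23 measured, 10 fell and 0 rose (median -0.36). Bst2, the antiviral protein tetherin, was at 0.83, 0.75 and 0.92 log2 CPM in the susceptible mice and 1.54 to 2.11 (median 1.83) in the resilient mice, with 2.66 in B6 and -0.11 in D2 controls (medians). It fell by 1.01 ± 0.26 (SE, adjusted p = 0.00929). Others in the same direction were the immunoproteasome subunit gene Psmb9 (-0.72), the peptide transporter genes Tap1 (-0.65) and Tap2 (-0.44), Nlrc5, the activator of class I genes (-0.65), the class I genes H2-K1 (-0.60) and H2-D1 (-0.36), Ifit3 (-0.55) and Ifi27 (-0.52). B6 and D2 carry different class I alleles, so counting on the B6 reference can differ between strains for H2 genes. The mean over the list against the mean of the resilient mice was -0.49, -0.30 and -0.25 in the susceptible and -0.16 to 0.27 in the resilient mice, without overlap, and resilient mice 4, 7 and 8 were at 0.21, 0.033 and 0.27. With the mt-Rnr2 level as a covariate 4 genes of the list were lower, and without resilient mice 4, 7 and 8 it was 8.

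Microglia and vessel genes moved in the same direction. Of 16 microglia markers 8 fell and 0 rose (median -0.21). The complement component gene C1qb was at 4.38, 4.58 and 4.79 log2 CPM in the susceptible mice against 4.95 to 5.43 (median 5.11) in the resilient mice, a difference of -0.52 ± 0.12 (SE), adjusted p = 0.00498, and its partners C1qa (-0.50) and C1qc (-0.49) fell with it. The receptor Trem2 (-0.38), its adaptor Tyrobp (-0.29), Tmem119 (-0.18) and Fcrls (-0.54) fell, while the chemokine receptor Cx3cr1 was at 5.21, 5.21 and 5.11 against 4.95 to 5.31 (median 5.11) (adjusted p = 0.478). No microglia marker was called with the mt-Rnr2 level as a covariate. Of 18 markers of endothelial and mural cells 7 fell and 0 rose (median -0.27), and 5 were called lower with that covariate. The 7 that fell included the tight junction claudin Cldn5 (-0.54) and the pericyte potassium channel Kcnj8 (-0.56). The smooth muscle protein Tagln (-0.55) and the glucose transporter Slc2a1 (-0.33) were also among them. Kcnj8 and Tagln were not called with the covariate (adjusted p = 0.154 and 0.0675). Of 18 astrocyte markers 6 fell, among them the filament gene Gfap (-0.40) and S100b (-0.35), and 3 rose, the connexin Gja1 (0.42), Sox9 (0.44) and Atp1b2 (0.66), while with the covariate 1 was lower and 0 higher. The share of astrocyte markers that rose was near the 14.1% of all genes. Of 5 measured blood cell genes 1 fell, the globin gene Hba-a2 (-1.29, adjusted p = 0.0158), whose near-identical copy Hba-a1 did not pass (0.036, adjusted p = 0.916). With strain position in the model the difference of Hba-a2, whose strain difference was -9.26, turned to 0.18, and it was not called with the mt-Rnr2 level (adjusted p = 0.150).

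Choroid plexus genes had large differences that mostly did not pass the test. Of 14 measured, all had a negative difference (median -1.98), but Folr1 alone was called. Folr1, the folate receptor of the plexus epithelium, was at -0.38, -0.17 and -1.24 log2 CPM in the susceptible mice and 0.30 to 4.3 (median 2.138) in the resilient mice, a difference of -2.98 ± 1.02 (SE), adjusted p = 0.0329. Ttr, which encodes the thyroxine carrier transthyretin and defines the tissue, was at 4.73, 5.81 and 3.41 against 3.95 to 9.96 (median 7.38), with an adjusted p of 0.161. The resilient mice spanned the whole range at Ttr, from the highest values to values within the susceptible range. The summed level of the 14 markers was 119 to 233 CPM in susceptible mice, 162 to 2126 in resilient mice, 189.9 to 3484 in B6 controls and 93.5 to 1001 in D2 controls. Of 10 ependymal markers 4 fell (median -0.62), the cilia genes Ccdc153 (-0.86), Tmem212 (-0.83) and Dnah11 (-0.80) and Rarres2 (-0.68), and their sum was 26.9 to 36 against 31.3 to 62.0 CPM. No marker of meningeal fibroblasts was called among 12 (limma; median -0.36), where Dcn differed by 0.12 and Col1a2 by -0.56. No choroid plexus or ependymal marker was called in limma with the mt-Rnr2 level as a covariate. How much plexus a dissection held was not recorded in the sources used here, and its part in the other results was not tested.

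Genes of synaptic transmission were higher in susceptible mice, but resilient mice 4, 7 and 8 shared much of the difference. Of 20 genes for proteins of synaptic vesicles and release, 13 rose and 0 fell (median 0.25). Vamp2, the vesicle SNARE synaptobrevin, was at 7.191, 7.57 and 7.36 log2 CPM in the susceptible mice and 5.98 to 7.36 (median 6.45) in the resilient mice. Its resilient values were 6.85, 7.36 and 7.23 in mice 4, 7 and 8 and 5.98 to 6.48 in the other 5, so that resilient mice 7 and 8 fell within the susceptible values. The difference was 0.77 ± 0.19 (SE), adjusted p = 0.00822. The active zone scaffold Bsn (0.70), the release proteins Cplx1 (0.47), Syt1 (0.43) and Syn1 (0.45) and the vesicular glutamate transporter Slc17a7 (0.24) rose with it. Of 19 genes for postsynaptic scaffolds and plasticity kinases 10 rose and 1 fell (median 0.16), led by Shank1 (0.70), Shank2 (0.69) and Shank3 (0.67), with the kinase gene Camk2a at 0.47, while Syne1 fell (-0.19). The mean over the vesicle genes, against the mean of the resilient mice, was 0.25, 0.34 and 0.31 in the susceptible mice, 0.056, 0.27 and 0.18 in resilient mice 4, 7 and 8 and -0.19 to -0.024 in the other 5. With the mt-Rnr2 level as a covariate 0 of the 20 vesicle genes and 0 of the 19 postsynaptic genes were called, and without resilient mice 4, 7 and 8 it was 14 and 12 higher, with 1 lower in each.

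Some receptor and channel genes were higher as well. Of 24 glutamate receptor subunit genes 9 rose and 1 fell, with Grik3, a kainate receptor subunit (6.36, 6.45 and 6.43 against 5.49 to 6.24 (median 5.86) log2 CPM, difference 0.55 ± 0.10 (SE), adjusted p = 0.00170), and the obligatory NMDA receptor subunit Grin1 (0.47) among the first and the AMPA receptor subunit Gria2 (-0.18) as the second. Beside the mt-Rnr2 level 1 of the 24 was called, and Grik3 (0.31, adjusted p = 0.0687) and Grin1 (0.12, adjusted p = 0.471) were not. Of 13 GABA-A receptor subunit genes 4 rose and 1 fell. Gabra2 was at 7.27, 7.29 and 7.12 against 6.71 to 6.96 (median 6.82), with 6.41 in B6 and 7.89 in D2 controls (medians), and rose by 0.40 ± 0.066 (SE), adjusted p = 0.000870, and it was still called beside the mt-Rnr2 level (adjusted p = 0.00936). Gabra3 rose by 0.41, and Gabrd, of extrasynaptic receptors, fell by 0.29. Of 22 voltage-gated potassium channel genes 8 rose and 0 fell, including Kcna3 (0.55), Kcnd1 (0.54), Kcnc4 (0.47) and Kcnc1 (0.44), and none was called beside the mt-Rnr2 level. Serotonin receptors Htr1a, an inhibitory receptor of pyramidal cells (5.55, 5.59 and 5.64 against 5.08 to 5.5 (median 5.29), difference 0.28), and Htr5a (0.25) rose, 2 of 12 measured. Of 14 receptors for stress hormones and peptides 2 rose, the oxytocin receptor Oxtr (0.22) and the opioid receptor Oprm1 (0.30). Both shares were near the 14.1% called higher over all genes, and 0 genes of either list were called with the mt-Rnr2 level. The adjusted p values of these 4 receptors were 0.00963, 0.0118, 0.0292 and 0.0282. None of 10 neurotrophin and neurotrophin receptor genes was called (median 0.03), and the BDNF receptor Ntrk2 differed by 0.013 ± 0.033 (SE, adjusted p = 0.792).

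Activity-induced immediate early genes, which neurons transcribe within minutes of firing, were higher, with 8 of 20 up and 0 down (median 0.38). Tissue was taken several days after the last defeat and the avoidance test. Nr4a2, an orphan nuclear receptor, was at 6.06, 6.00 and 5.87 log2 CPM in the susceptible mice and 4.66 to 5.79 (median 5.12) in the resilient mice, without overlap, and rose by 0.76 ± 0.17 (SE), adjusted p = 0.00546. Egr2 (0.98), Nr4a1 (0.75), Egr3 (0.71), Fosb (0.67), Fosl2 (0.38), Jun (0.37) and Nr4a3 (0.28) also rose. Fos was at 3.41, 2.93 and 2.54 against 2.16 to 2.77 (median 2.5) (adjusted p = 0.150) and Arc at 6.79, 6.394 and 6.21 against 5.99 to 6.72 (median 6.58) (adjusted p = 0.885). The list mean was 0.44, 0.44 and 0.22 in the susceptible mice, 0.28, 0.31 and 0.14 in resilient mice 4, 7 and 8 and -0.36 to -0.055 in the other resilient mice, all against the mean of the resilient mice. With the mt-Rnr2 level as a covariate 0 of the 20 genes were called. Among 18 genes induced by glucocorticoids 6 fell, including Sgk1 (-0.43), Tsc22d3, which encodes the leucine zipper protein Gilz (-0.42), Map3k6 (-0.63) and Arrdc2 (-0.47), and 3 rose, Cdkn1a (1.1), Ddit4 (0.58) and Per1. The share of the 18 that rose was near the 14.1% of all genes. Of these 18, 4 were lower and 0 higher with the mt-Rnr2 level as a covariate.

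Circadian clock genes were higher in susceptible mice, 8 of 17 up and 0 down (median 0.25). In the clock, the activators Clock and Arntl bind E-boxes, whose core letters are CACGTG, and drive Per and Cry genes, whose products in turn hold the activators back. Mice were killed in the morning in an order balanced over the groups. To show this element, the 250 bases before the first-listed start site are given for 2 of the genes that rose and that hold it, from RefSeq on GRCm38.p6, 5′ to 3′ on the strand of the gene, with CACGTG in capitals. Per1 lies on chr11:69098699-69098948 (plus strand) in this window and Bhlhe41, which encodes a repressor of the clock, on chr6:145865421-145865670 (minus strand).
Per1: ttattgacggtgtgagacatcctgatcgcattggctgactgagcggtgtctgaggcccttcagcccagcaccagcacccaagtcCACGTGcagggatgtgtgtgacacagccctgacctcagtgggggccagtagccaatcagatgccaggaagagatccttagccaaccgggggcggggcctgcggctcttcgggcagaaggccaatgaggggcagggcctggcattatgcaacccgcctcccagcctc
Bhlhe41: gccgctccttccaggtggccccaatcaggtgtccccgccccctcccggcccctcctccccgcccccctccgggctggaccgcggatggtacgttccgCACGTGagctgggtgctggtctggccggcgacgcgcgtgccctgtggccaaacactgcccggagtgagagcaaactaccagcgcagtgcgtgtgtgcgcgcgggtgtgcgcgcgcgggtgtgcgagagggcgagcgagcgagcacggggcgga
A later start site of Per1 (window chr11:69099902-69100151) has no such letters before it. The element starts at position -166 from the start site in Per1 and at -153 in Bhlhe41. CACGTG reads the same on both strands, and it stood in 5 of the 15 first-listed promoters of the clock genes, among them 2 of 7 called, beside 6.05% of 27025 promoters of this length. A match of letters is a description of the window and no evidence of binding.

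Per1 was at 5.71, 5.75 and 5.67 log2 CPM in the susceptible mice and 4.61 to 5.69 (median 5.07) in the resilient mice, and rose by 0.52 ± 0.15 (SE), adjusted p = 0.0139. Resilient mice 4, 7 and 8 were at 5.48, 5.69 and 5.65 and overlapped or neared the susceptible mice, while the other 5 were at 4.61 to 5.12. Bhlhe41 rose by 0.50 ± 0.11 (SE), adjusted p = 0.00440, from 4.33 to 5.02 (median 4.59) to 5.16, 5.14 and 5.17, without overlap. The output factor Hlf (0.50), the repressors Nr1d1 (0.46) and Cry2 (0.43), the activator Npas2 (0.42), Per2 (0.35) and Rorb (0.20) rose as well, whereas Arntl (0.046) and Clock (0.033) did not pass (adjusted p = 0.574 and 0.506). The list mean was 0.20, 0.23 and 0.26 in the susceptible mice, 0.12, 0.20 and 0.19 in resilient mice 4, 7 and 8 and -0.25 to -0.028 in the others, and 0 of the 17 genes were called with the mt-Rnr2 level as a covariate.

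Nuclear genes of the respiratory chain and of the ribosome were lower. Of 30 nuclear respiratory chain subunit genes 19 fell and 1 rose (median -0.25), although the median strain difference of the list was -0.023. The cytochrome c oxidase gene Cox7c was at 2.16, 2.22 and 2.41 log2 CPM in the susceptible mice and 2.41 to 2.86 (median 2.75) in the resilient mice and fell by 0.44 (adjusted p = 0.00553), and the complex I gene Ndufa1 fell by 0.38 (adjusted p = 0.0328). Subunits of complex I (Ndufb8 -0.34, Ndufs1 -0.26), complex IV (Cox4i1 -0.31, Cox5b -0.34) and ATP synthase (Atp5b -0.24) fell together, and Sdha of complex II rose (0.28). Of 11 mRNAs of the mitochondrial genome 1 rose, mt-Atp6 (0.66), and 1 fell, mt-Co3 (-0.29), neither of them called beside the mt-Rnr2 level. Both shares were below the 14.1% called higher and 13.6% called lower over all genes. Of 79 cytosolic ribosomal protein genes 40 fell and 1 rose (median -0.28). Rpsa, a protein of the small subunit, was at 3.69, 3.97 and 3.94 against 4.26 to 5.15 (median 4.7) and fell by 0.85 ± 0.15 (SE, adjusted p = 0.00160), and Rpl29 fell by 0.81 (adjusted p = 0.0124). Both have processed copies in the genome and strain differences of -4.07 and -6.63, and with strain position in the model Rpl29 turned to 0.14. Of the called genes, 14 of 20 in the respiratory chain and 31 of 41 in the ribosome went the way of the strain difference, against 13 of 13 vesicle genes and 10 of 10 interferon and antigen presentation genes. Rplp0 (-0.65), Rps18 (-0.56) and Rpl3 (-0.51) fell too.

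Genes with short exons in sum tended to be lower in general, and the part of length in the respiratory chain and ribosomal lists was not tested. Over 14428 protein-coding genes, the median difference rose from -0.13 in the 2887 genes with the shortest exons in sum (up to 2567 bases) to 0.033 in the 2886 with the longest (from 7752 bases), the ends of 5 groups by length. Calls were lower at 24.1% and higher at 6.89% of the shortest group, against 8.87% and 23.5% of the longest. Spearman's rho of exon length with the phenotype difference was 0.243 across genes, and with the strain difference 0.0242. The gap between the median of the longest and of the shortest group, against the mean of the resilient mice, was 0.19, 0.18 and 0.14 in the susceptible mice, 0.092, 0.15 and 0.09 in resilient mice 4, 7 and 8 and -0.15 to -0.018 in the other 5. Resilient mice 4, 7 and 8 thus had the sign of the susceptible mice, and mouse 7 their size. The list mean of the ribosomal protein genes was -0.28, -0.23 and -0.23 in the susceptible mice, -0.082, -0.18 and -0.075 in resilient mice 4, 7 and 8 and 0.021 to 0.15 in the others, without overlap. That of the respiratory chain genes was -0.23, -0.24 and -0.16 in the susceptible mice, -0.12, -0.23 and -0.10 in resilient mice 4, 7 and 8 and 0.017 to 0.20 in the others, with overlap. With the mt-Rnr2 level as a covariate 0 of 30 respiratory chain genes and 3 of 79 ribosomal protein genes were called lower, and without resilient mice 4, 7 and 8 it was 27 and 53 lower. The part of RNA quality or ribosomal RNA depletion in these values was not tested.

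**Figure D4:**
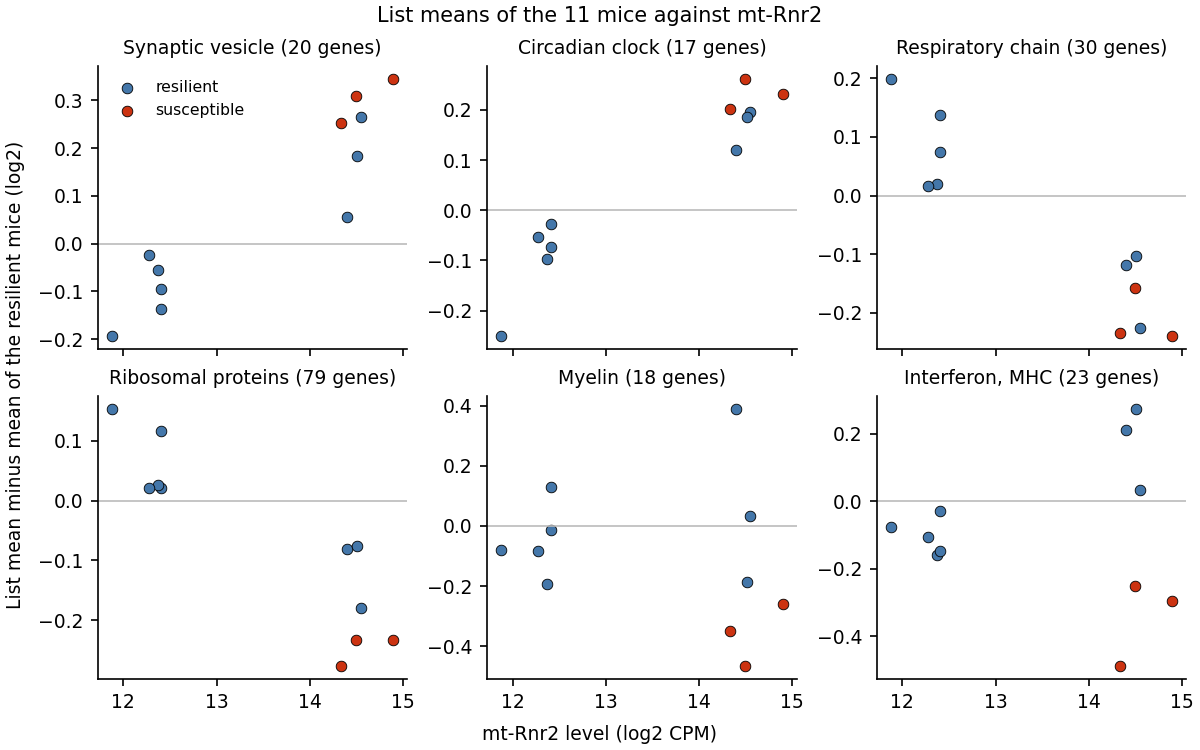
Mean of 6 gene lists in each of the 11 mice, against the mean of the resilient mice (vertical axis, log2), plotted against the mt-Rnr2 level of the mouse (horizontal axis, log2 CPM). Resilient mice 4, 7 and 8 sit at the right with the susceptible mice and go with them in the synaptic, clock, respiratory chain and ribosomal lists, whereas in the interferon list they lie above every susceptible mouse and in the myelin list they spread from -0.19 to 0.39.

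Chaperone genes were mixed. Of 20 heat shock proteins and chaperones 6 fell and 1 rose (median -0.056). The constitutive chaperone Hspa8 was at 7.71, 7.99 and 7.98 log2 CPM in the susceptible mice and 8.30 to 8.84 (median 8.48) in the resilient mice, with 9.42 in B6 and 6.33 in D2 controls (medians), and fell by 0.65 ± 0.11 (SE, adjusted p = 0.000976). The inducible pair Hspa1a (-0.46) and Hspa1b (-0.43), near copies of each other, and the endoplasmic reticulum genes Creld2 (-0.33), Pdia4 (-0.31) and Pdia6 (-0.24) fell, and Hsph1 rose (0.27). Among 14 genes of the extracellular matrix and perineuronal nets, 4 fell, with the aggrecan gene Acan (-0.40) and Adamts4 (-0.39) beside Hapln2 and Vcan, and 3 rose, including the link proteins Hapln1 (0.32) and Hapln4 (0.52). Over all genes 13.6% were called lower and 14.1% higher. Of both lists 1 gene each was lower and 0 higher beside the mt-Rnr2 level.

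Markers of the hippocampal fields did not shift as 1 block. Of 14 dentate gyrus markers 6 fell and 0 rose (median -0.16), and their summed level was 731 to 802 CPM in the susceptible and 789 to 999 CPM in the resilient mice. Tdo2, a tryptophan-degrading enzyme of granule cells, was at 1.90, 2.169 and 2.31 log2 CPM against 2.36 to 3.01 (median 2.86) and fell by 0.69 (adjusted p = 0.00264), and the desmosome gene Dsp (-0.62), C1ql2 (-0.46) and Lct (-0.69) fell with it, while Prox1 differed by 0.13 (adjusted p = 0.512). Of 11 CA1 markers 3 rose, including Mpped1 (0.32) and Htr1a, and 1 fell, Spink8 (-0.59). Of 15 CA3 and CA2 markers 4 fell, such as Bok (-0.54) and Map3k15 (-0.67), and 2 rose, Elavl2 (0.21) and Cdh24 (0.59). The share of CA3 and CA2 markers that rose was near the 14.1% of all genes. The summed levels of the CA1 markers were 951 to 1004 and 837 to 998 CPM and those of the CA3 and CA2 markers 545 to 572 and 523 to 567.7 CPM in the 2 groups, which overlapped. Beside the mt-Rnr2 level 1 dentate gyrus and 1 CA3 and CA2 marker were lower, and 0 CA1 markers were called.

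Several markers of cortical and amygdala neurons were higher. Of 13 cortical and amygdala neuron markers 7 rose and 0 fell (median 0.32). The cortical transcription factor Tbr1 was at 4.97, 4.99 and 4.82 log2 CPM in the susceptible mice and 3.31 to 4.78 (median 3.87) in the resilient mice, without overlap, and rose by 0.90 ± 0.22 (SE), adjusted p = 0.00737. The layer genes Cux2 (0.63), Fezf2 (0.54), Etv1 (0.21) and Rorb (0.20) and the amygdala genes Rspo2 (0.44) and Meis2 (0.32) rose too. The summed level was 470.5 to 498 CPM in the susceptible mice, 315 to 467 in resilient mice and 351 to 407 in B6 controls. The list mean was 0.16, 0.33 and 0.16 in resilient mice 4, 7 and 8, against 0.32, 0.34 and 0.33 in the susceptible mice, and 0 of the 13 genes were called with the mt-Rnr2 level as a covariate. Of 14 markers of the subiculum and the ventral hippocampus 5 rose and 0 fell, with Nr2f2 at 0.69 (adjusted p = 0.00314). Of 16 interneuron markers 5 rose and 0 fell, with 8 differences above 0 and 8 below and a median of 0.03. Those that rose included the somatostatin gene Sst (0.47), the vesicular GABA transporter Slc32a1 (0.53) and Nos1 (0.38). None of the subiculum or interneuron markers was called beside the mt-Rnr2 level. Thalamic markers had 2 up and 1 down of 14, striatal markers 1 and 1 of 13, mossy cell markers 1 and 1 of 7, brain long noncoding RNAs 2 and 1 of 13, and markers of adult neurogenesis 1 up of 11, Dcx (0.18). Such shares were near or below the 14.1% called higher and 13.6% called lower over all genes. Of these lists 1 thalamic marker was higher and 1 long noncoding RNA lower beside the mt-Rnr2 level. Thalamic markers summed to 689 to 707 CPM in susceptible and 666 to 715 CPM in resilient mice.

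**Figure D5:**
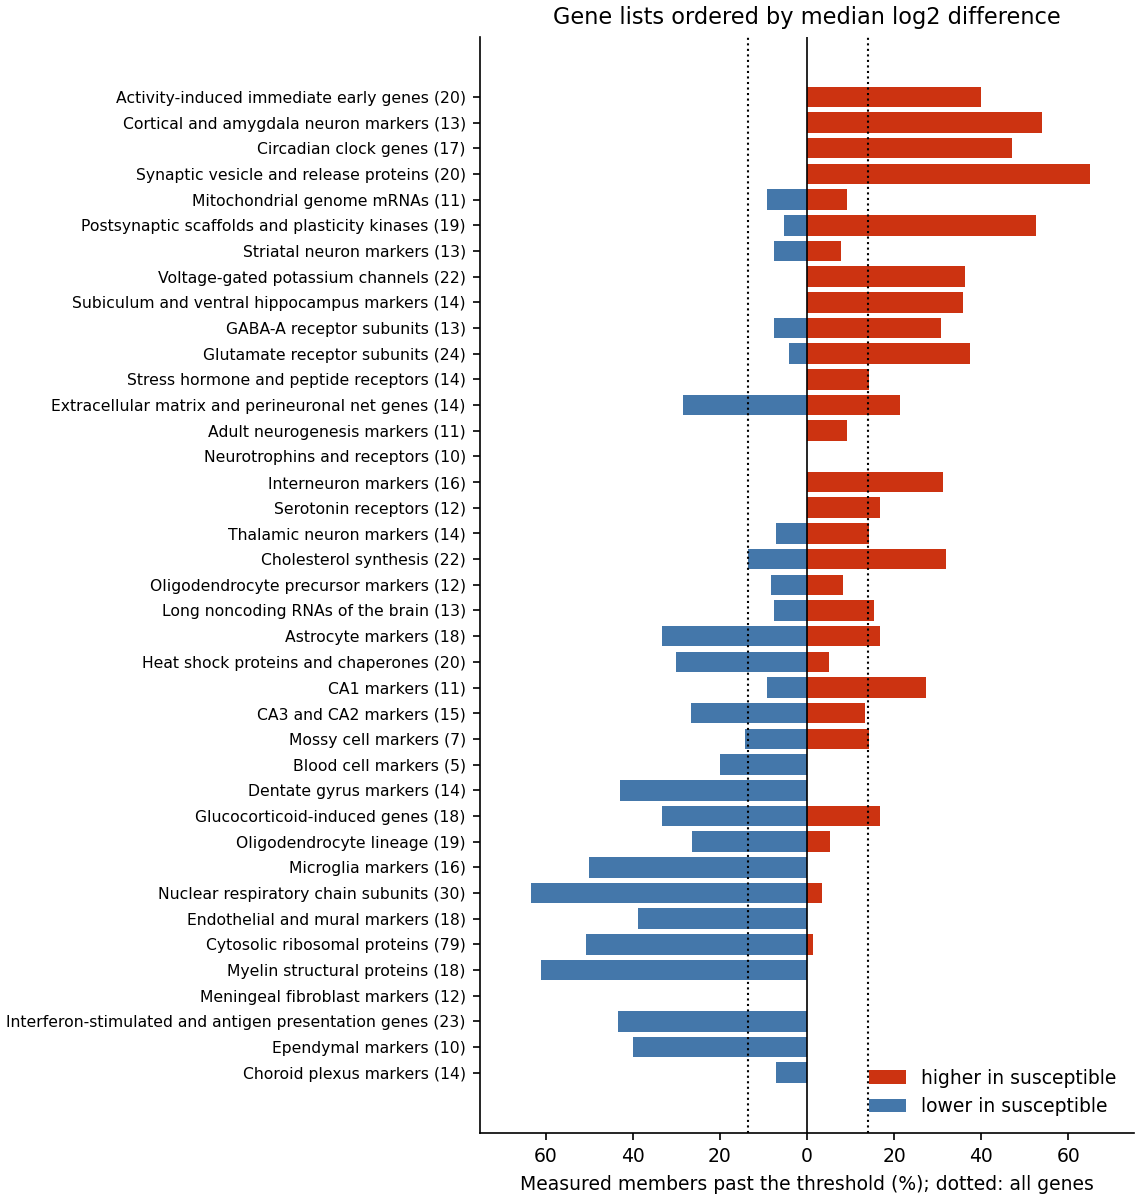
Share of the measured members of each gene list that were higher (red, right) or lower (blue, left) in susceptible than in resilient mice at an adjusted p under 0.05, with the number measured in brackets and lists ordered by their median log2 difference. The dotted lines mark the share over all genes, 14.1% higher and 13.6% lower, and synaptic vesicle genes reach furthest to the right and respiratory chain genes furthest to the left.

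The same phenotypes were compared in 2 other regions. In the medial prefrontal cortex (mPFC), with 6 susceptible and 6 resilient B6 mice of which 2 resilient mice also gave a vHPC library, 383 of 18946 genes were called (2.02%; limma). Of the vHPC calls measured in both regions 2.93% were also called in the mPFC, beside 2.02% of all mPFC genes. Of the mPFC calls 40.4% were also called in the vHPC, beside 27.6% of all vHPC genes. Both regions called 150 genes, of which 142 had the same sign. In the BNST, from other mice, 1 of 17515 genes was called by edgeR (1323 at an unadjusted p under 0.05) and 42 by DESeq2. The regions were made into libraries with different kits. Most susceptible mice of the mPFC shared a mouse ID prefix that no resilient mouse there had. Prefix and phenotype can therefore hardly be told apart in that region. Myelin genes were lower in the mPFC too, 12 of 18 with a median of -0.65, and in the BNST their median was 0.58. Mobp differed by -0.83 in the mPFC (adjusted p = 0.0404) and by 0.72 in the BNST (adjusted p = 0.636). None of the vesicle, clock, immediate early, ribosomal protein or respiratory chain genes was called in the mPFC except 1 clock gene, with list medians of 0.05, 0.11, 0.30, -0.06 and -0.049. Whether the phenotype difference itself differed between regions was not tested.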

How the data were processed

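RNA of 28 vHPC samples was sequenced after ribosomal RNA depletion with Nextera libraries. The authors removed duplicate reads, aligned to GRCm38, counted reads on gene exons with HTSeq, kept genes that reached 1 CPM in 6 or more libraries, and deposited log2 CPM values made with voom and ComBat, which adjusted for library preparation and sequencing sets. Whether ComBat was given the groups is not given in the sources used here. For the BNST the authors deposited raw counts, which were not batch adjusted.

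The vHPC and mPFC values were fitted with limma 3.58.1 in R 4.3.3 (robust empirical Bayes, a mean per group, all libraries of the region), and p-values were adjusted by the Benjamini-Hochberg method over all genes with a threshold of 0.05. The BNST counts were fitted with edgeR 4.0.16 (quasi-likelihood test, TMM) and with DESeq2 1.42.0 as an alternative. The limma and edgeR fits were tested on simulated data. Strain position and its permutation test were written in R, and the other self-written steps used Python 3.11.15 and SciPy 1.17.1. Strain markers were genes with a difference over 3 (log2) between BNST controls. Symbols came from GENCODE, with coordinates on GRCm38.

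The text names genes with a mean of at least 1 log2 CPM by rule. These were the 10 highest and 10 lowest products of log2 difference and −log10 p without overlap, the 5 and 5 also called beside strain position and not between strains, the 3 and 3 called against the strain difference, both without overlap as well, 3 and 3 strain markers, and 2 per list. Some genes that the rule selects are not reported here. Other members of a list, and mt-Rnr1 and mt-Rnr2, were chosen after their values were seen. The genes and lists were chosen with earlier results of these data known. Alternatives were the empirical Bayes options, a filter on low values, scaling, covariates, fits within batches and leaving out mice. The fits with the mt-Rnr2 level and without resilient mice 4, 7 and 8 were added after seeing the data. Each library was 1 mouse, with 8410633 to 22931954 reads in defeated B6 mice.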

Additional observations from a re-analysis of the deposited data

Results flagged for a closer look

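Of 42 groups of 4 to 10 mice examined for a single distant value, 2 had one, and chance gives about 1 in 20. Tmem145 stood at 3.57 log2 CPM in B6 resilient mouse 7, above the other resilient mice by more than the spread among them, and the strain position of D2 susceptible mouse 5 was 1.16, below the other susceptible D2 mice.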

How the results depend on the processing

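The number of genes called (5404, with 2749 higher and 2655 lower) depended on the mice and terms in the model. It was 4006 with the sequencing set, 5089 with the mouse ID prefix, 1017 (364 higher, 653 lower) with only the 11 defeated B6 mice, 1826 (986 and 840) with strain position in the model, 2594 (1389 and 1205) with the strain component subtracted, 100 (36 and 64) within sequencing set 1, 350 (103 and 247) with the mt-Rnr2 level and 9181 (4496 and 4685) without resilient mice 4, 7 and 8. It was 0 (0 and 0) with the library set in the model, within library set 1 and within sequencing set 2. Leaving out 1 mouse gave 1495 to 7161 called, 686 to 3594 higher and 809 to 3567 lower, the lowest without susceptible mouse 2.

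The share of called genes along the strain difference was 88.4% with a mean-variance trend, 88.0% with a mean of at least 1 log2 CPM, 96.1% with only the 11 mice, 94.7% with the sequencing set, 88.5% with the mouse ID prefix, 79.5% with strain position, 80.3% with the strain component subtracted, 100% within sequencing set 1, 99.1% with the mt-Rnr2 level, 77.4% without resilient mice 4, 7 and 8, and 84.2% to 96.0% leaving out 1 mouse. The slope over all genes was 0.274 with a mean of at least 1 log2 CPM, 0.190 with the library set, 0.107 with strain position, 0.0827 with the strain component subtracted, 0.183 within library set 1, 0.271 within sequencing set 1 and 0.205 to 0.233 leaving out 1 mouse. Over the strain markers it was 0.113 with a mean of at least 1 log2 CPM (39 markers) and 0.0773 with the library set. By construction it was 0.00 with strain position and with the strain component subtracted. It was 0.0811 within library set 1 and 0.180 within sequencing set 1. The difference in strain position was 0.0811 within library set 1, 0.180 within sequencing set 1 and 0.117 within sequencing set 2, where so few mice cannot reach the threshold, and 0.119 to 0.150 leaving out 1 mouse. DESeq2 called 42 genes in the BNST.

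Signs turned for Nkx2-2 (-0.19), Atp1b2 (-0.03) and Bcl6 (-0.14) within sequencing set 1, for Bcl6 (-0.03) with the mt-Rnr2 level, for Hba-a2 (0.18), Rpl29 (0.14) and Trim12a (0.12) with strain position, and for Rpl29 (0.11) and Trim12a (0.06) with the strain component subtracted. The cause was not tested. No paired analysis was possible because replicate numbers were given in accession order and link no mice.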
